A study of Mus musculus with 22 samples.

Results

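Voltage-gated sodium and calcium channels are complexes of 1 large pore-forming subunit and smaller auxiliary subunits, and all genes for them that could be identified on the arrays by symbol (Cacn, or Scn followed by a digit) are described here. A gene counted as a member when at least 1 probe set carried its symbol and no other, and the probe set with the highest mean log2 signal over all 22 arrays stood for it. This gave 35 members of 18194 genes. Membership followed the symbols alone, but this family of genes was chosen with earlier results of these data known.

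The arrays were hybridised with RNA of granule cells taken from the cerebellum of mouse pups (postnatal day 7, strain labelled C56Bl6/J), in 3 comparisons that share no arrays. The first set 4 arrays of cultured Chd7 mutant cerebellar granule neurons (CGNs), which in the study are Atoh1-Cre::Chd7 f/f, against 4 arrays of control CGNs, which are Chd7 f/f without the Cre and are labelled wild type. The second set 4 arrays of CGNs given 10 µM ICRF-193, which blocks the catalytic cycle of type II topoisomerases, for 12 h against 4 arrays of CGNs given the solvent DMSO. The third set 3 arrays of CGNs cultured with an agent labelled Smo2 against 3 arrays without it. The study describes a Smoothened agonist for a culture of this kind, but whether Smo2 is that compound is not stated in the labels. Cells were purified on Percoll gradients and plated, so other cerebellar cells could remain, and the sex of the pups was not discriminated. Atoh1-Cre acts in the granule lineage, so any other cell in the mutant cultures would keep Chd7. The labels call the arrays biological replicates but do not say whether they came from separate litters or cultures, so the p-values measure the spread between these arrays.

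Action potentials depend on sodium channels, whose pores in central neurons are encoded mainly by Scn1a, Scn2a, Scn3a and Scn8a, with beta subunits that alter gating and bind adhesion molecules. Calcium channels turn depolarisation into calcium entry: Cacna1a and Cacna1b form the P/Q-type and N-type pores of transmitter release, Cacna1c and Cacna1d the L-type pores that signal to the nucleus, Cacna1e the R-type pore and Cacna1g the T-type pore that opens near rest. Alpha2delta subunits (Cacna2d genes) and beta subunits (Cacnb genes) bring the pores to the membrane, while most gamma genes in brain encode TARPs, which traffic AMPA receptors. Neurons build up these channels as they leave the cell cycle and become excitable.

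The members differ in the DNA around their annotated starts, and 4 promoters are shown because they belong to the alpha2delta genes that were lower with ICRF-193 and to 2 of the 3 sodium channel genes that were higher in the Chd7 mutant; the other, Scn3a, has no window here. Each line gives the 250 bases before the start in RefSeq (GRCm38.p6), 5′ to 3′ on the gene's strand, with every CG pair in capitals. The Cacna2d1 window is chr5:15934441-15934690 (plus strand) and the Cacna2d3 window chr14:29721865-29722114 (minus strand). The Scn2a window is chr2:65620519-65620768 (plus strand) and the Scn2b window chr9:45117626-45117875 (plus strand).
Cacna2d1: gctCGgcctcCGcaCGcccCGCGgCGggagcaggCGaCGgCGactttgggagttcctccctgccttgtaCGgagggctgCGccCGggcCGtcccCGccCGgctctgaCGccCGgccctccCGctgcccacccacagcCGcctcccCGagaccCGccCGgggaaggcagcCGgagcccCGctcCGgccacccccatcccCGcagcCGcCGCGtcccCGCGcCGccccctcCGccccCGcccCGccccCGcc
Cacna2d3: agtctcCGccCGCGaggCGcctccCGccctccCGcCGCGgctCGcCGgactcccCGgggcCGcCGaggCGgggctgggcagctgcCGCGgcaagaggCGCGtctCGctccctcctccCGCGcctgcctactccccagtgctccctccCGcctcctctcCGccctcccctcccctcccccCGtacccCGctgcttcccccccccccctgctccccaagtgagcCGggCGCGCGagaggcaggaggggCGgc
Scn2a: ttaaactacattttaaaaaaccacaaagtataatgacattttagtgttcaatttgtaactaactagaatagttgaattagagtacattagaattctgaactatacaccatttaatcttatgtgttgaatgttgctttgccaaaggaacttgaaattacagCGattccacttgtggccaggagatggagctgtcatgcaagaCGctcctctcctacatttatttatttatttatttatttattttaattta
Scn2b: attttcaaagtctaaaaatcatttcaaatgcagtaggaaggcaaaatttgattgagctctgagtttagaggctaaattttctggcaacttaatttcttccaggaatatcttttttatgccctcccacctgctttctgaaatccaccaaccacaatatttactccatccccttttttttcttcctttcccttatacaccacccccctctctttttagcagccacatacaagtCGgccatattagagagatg

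The alpha2delta windows held 36 (Cacna2d1) and 30 (Cacna2d3) CG pairs, and the sodium channel windows held 2 (Scn2a) and 1 (Scn2b). Over all 32851 windows the median was 6, with at least 30 in 5.94% and at most 2 in 29%. The third alpha2delta gene, Cacna2d2, which was not called with ICRF-193, had 34, so a CG-rich start was not particular to the pair that fell. Another annotated start of Scn2a had 9, and Cacna1d and Cacna1c had starts with 2 as well as starts with 50 and 48. Of 27 members with a window, 1 (Cacnb4, at one of its starts) held the Gli factor site GACCACCCA on either strand, as did 0.225% of all windows. These counts describe the letters of these windows only.

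Signals are given on the log2 scale after flooring at 16, which is 4 on this scale, and quantile normalization of all arrays. Genes with a mean of at least 6.44 were tested, 10772 in all, with limma and Benjamini-Hochberg adjustment over them, two-sided, and a gene was called at an adjusted p under 0.05. Of the 35 members 21 passed this filter. Array signals do not compare between genes, so each level is read only against the same gene in another group. In bulk RNA, fewer cells of a type and less RNA per cell cannot be told apart.

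The 14 members below the filter were mostly channels of other tissues. Scn10a, a pore of sensory neurons, was at the floor on 16 arrays, Cacng1 of skeletal muscle on 17, Cacna1s, the skeletal muscle L-type pore, on 12, and Scn4b on 12. Scn11a, Cacnb2, Cacng3, Cacng6, Cacna2d4, Scn7a, Scn9a and the retinal L-type pore Cacna1f were at the floor on 1 to 9 arrays. Scn1a, a pore best known from inhibitory and mature neurons, was above the floor on every array and had a mean of 6.17. Cacna1h, a T-type pore, was at the floor on 3 arrays. When all genes were tested without the filter, it had 6.83, 6.90, 6.47 and 6.85 with ICRF-193, against 5.50, 4.50, 4.00 and 4.50 with DMSO (limma adjusted p = 0.0142). In that same fit Cacna1h had 4.00 to 5.22 with Smo2, 2 of 3 arrays at the floor, against 5.69 to 5.99 without it (limma adjusted p = 0.0397). No size is given for either change, since arrays of the lower group were at the floor.

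Of the 21 tested members, 11 were called in 2 of the 3 comparisons, 7 in 1, and 3 (Cacnb1, Cacng2 and Cacng7) in none. With Smo2 alone 39% of all genes tested were called lower and 29.7% higher, so a call in at least 1 comparison was common. The 7 include Cacng5, whose only call, with Smo2, is no support for a change, as given below. No member was called in all 3. The plot of changes shows the members by class in each comparison.

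**Figure D1:**
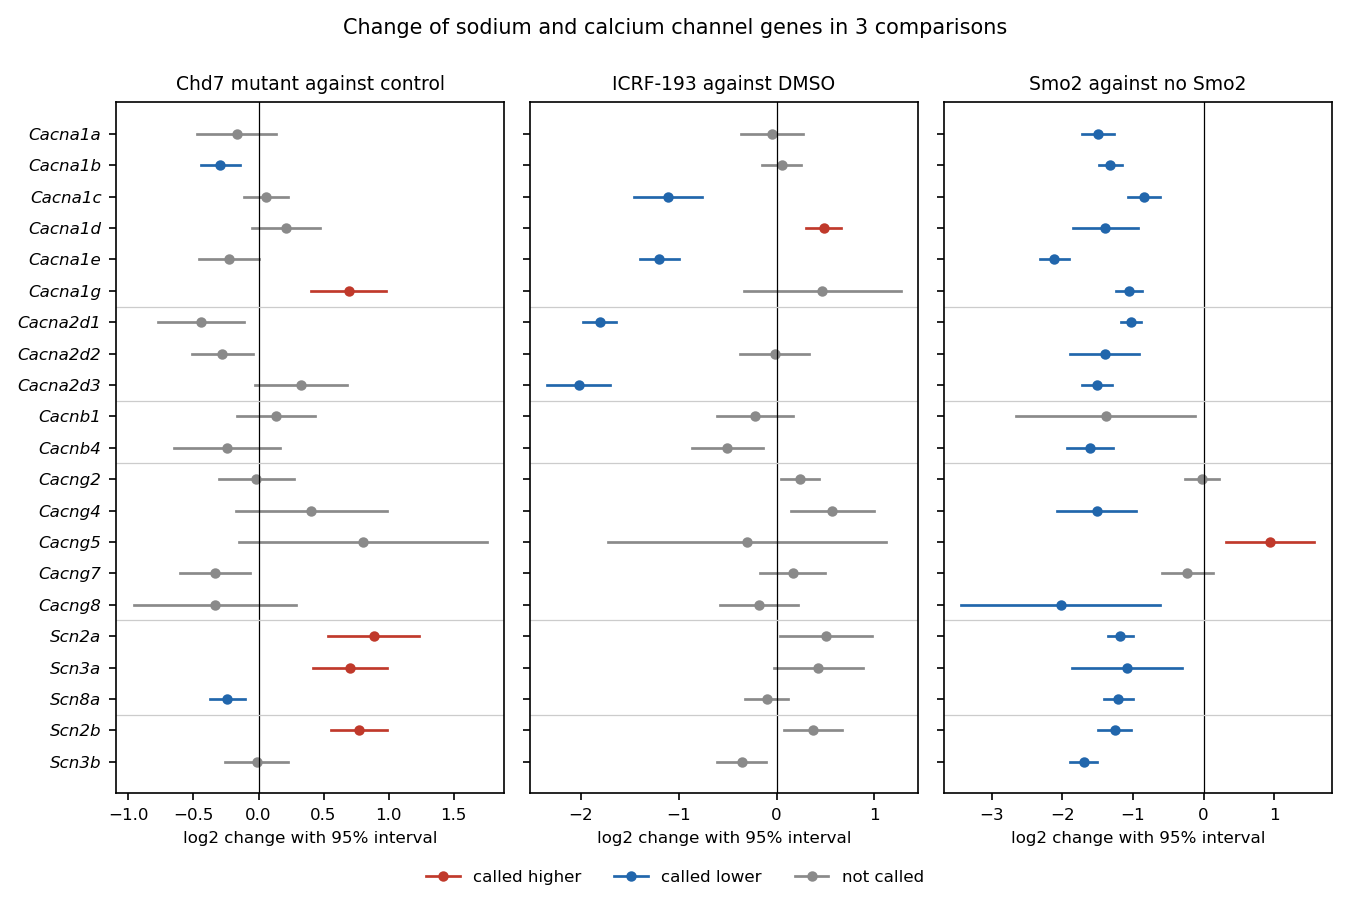
Log2 change of each tested member (x axis, with its 95% interval from limma) in Chd7 mutant against control CGNs, ICRF-193 against DMSO and Smo2 against no Smo2, with members grouped from top to bottom as calcium channel pores, alpha2delta, calcium channel beta, gamma and TARP, sodium channel pores and sodium channel beta. The Chd7 panel holds 4 members called higher and 2 called lower, the ICRF-193 panel 1 and 4, and the Smo2 panel 1 and 17; the x axes differ between panels.

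In Chd7 mutant CGNs 4 channel genes were higher, namely the sodium channel pores Scn2a and Scn3a, the sodium channel beta subunit Scn2b and the T-type pore Cacna1g, by 0.69 to 0.88 on the log2 scale. The N-type pore Cacna1b and the sodium channel pore Scn8a were lower, by 0.24 to 0.29. The question of this comparison is which transcripts need the chromatin remodeller Chd7. The 4 of 21 members called higher (19.0%) stand beside 5.09% of all genes tested, and the 2 called lower (9.52%) beside 3.82%. Every mutant array lay above every control array for the 4 members called higher (10.5% of all genes) and below for the 2 called lower (9.19%). With arrays centred on their medians instead of quantile normalized, 4 members were called in each direction. The median change was -0.02 over the tested members and 0.00 over all genes.

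Scn2a, the pore that carries axonal sodium current in young neurons, had 10.97, 11.12, 10.59 and 10.60 in mutant arrays, against 10.16, 10.02, 9.68 and 9.88 in control arrays. The groups did not overlap, and the change was 0.88 ± 0.15 (SE), a 1.85-fold increase (limma adjusted p = 0.0113). All 3 of its bright probe sets were higher in the mutant, by 0.72 to 0.88. Scn3a, a pore prominent before and around birth, had 8.16, 8.09, 8.15 and 8.59 in mutant arrays and 7.49, 7.37, 7.66 and 7.65 in control arrays, again with every mutant array above every control array (change 0.70 ± 0.12, limma adjusted p = 0.0123). Scn2b, whose product is linked to the pore by a disulfide bond, had 9.50, 9.45, 9.77 and 9.67 in mutant arrays, against 8.83, 8.97, 8.81 and 8.69 in control arrays. This was the smallest adjusted p among the members in this comparison (change 0.77 ± 0.09, limma adjusted p = 0.00253).

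Scn2a and Scn3a lie next to each other in a run of sodium channel genes on chromosome 2 (GRCm38.p6), with Scn3a at 65457118 to 65567591 and Scn2a at 65620764 to 65767447. The other measured genes of that run, Scn1a, Scn9a and Scn7a, were below the filter. Scn1a had 6.78 to 7.17 in mutant arrays and 6.17 to 6.79 in control arrays, a change of 0.55 that did not pass without the filter (limma adjusted p = 0.107). Scn9a, a pore best known from peripheral neurons, had 4.43 to 5.46 in mutant arrays and 4.33 to 5.58 in control arrays. Scn7a, an atypical sodium channel, had 4.00 to 5.06 in mutant arrays and 4.51 to 5.11 in control arrays, so both genes were near the floor and overlapped between groups.

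Cacna1g had 8.32, 8.08, 8.57 and 8.69 in mutant arrays, against 7.69, 7.72, 7.70 and 7.78 in control arrays. The control arrays lay close together, and every mutant array was above them (change 0.69 ± 0.13, a 1.62-fold increase, limma adjusted p = 0.0140). Cacna1b had 10.41, 10.48, 10.33 and 10.53 in mutant arrays and 10.74, 10.64, 10.76 and 10.79 in control arrays (change -0.29 ± 0.06, limma adjusted p = 0.0290). Scn8a, the main pore of mature nodes and axon initial segments, had 11.19, 11.10, 11.21 and 11.25 in mutant arrays and 11.35, 11.43, 11.45 and 11.49 in control arrays (change -0.24 ± 0.06, limma adjusted p = 0.0408). Both genes were lower on every mutant array, by 1.23-fold and 1.18-fold on average, and all their bright probe sets, 3 for Cacna1b and 4 for Scn8a, had negative changes. Cacna1b lost its call when any of 6 of the 8 arrays was left out, and Scn8a when any 1 of the 8 was, with adjusted p between 0.0523 and 0.107 in those fits. The 4 higher genes were all called whichever single array was left out.

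**Figure D2:**
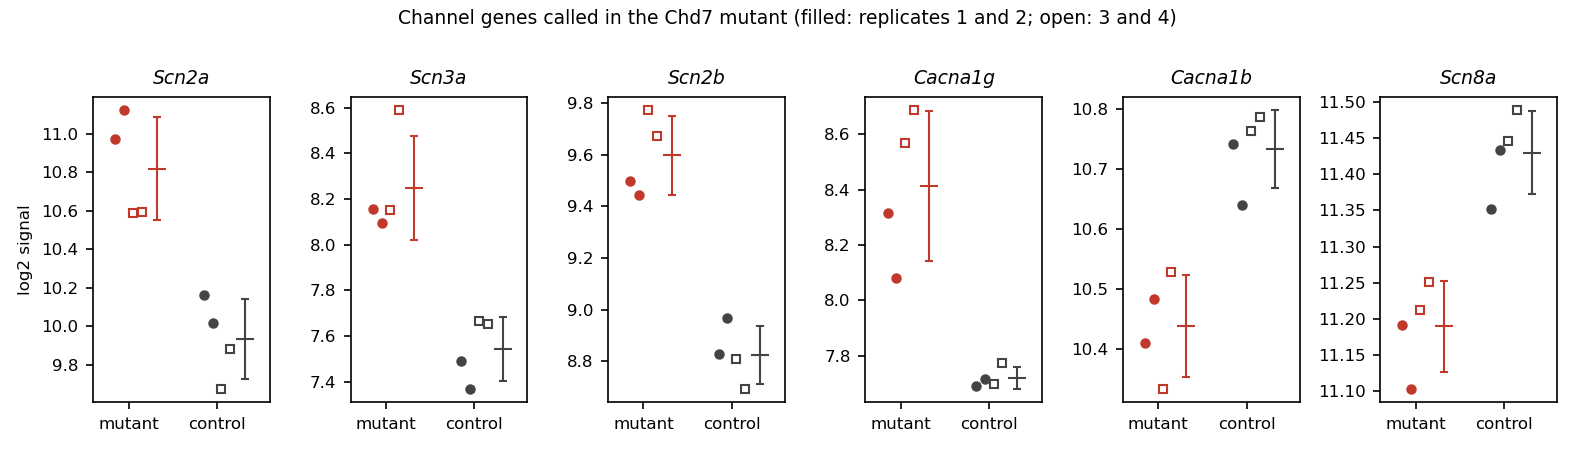
Log2 signal (y axis, a separate scale for each gene) of the 6 members called in the Chd7 comparison, with the 4 mutant arrays left of the 4 control arrays; filled circles are replicates 1 and 2, open squares replicates 3 and 4, and the bar beside them is the mean with its SD. Mutant arrays lie above all control arrays for Scn2a, Scn3a, Scn2b and Cacna1g and below all control arrays for Cacna1b and Scn8a.

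The remaining members did not pass in the main fit of the mutant comparison. Cacna2d1, which the study lists among its genes and whose product binds the drug gabapentin, had 11.88, 12.01, 12.30 and 12.45 in mutant arrays, against 12.41, 12.53, 12.65 and 12.83 in control arrays. By qRT-PCR the study found Cacna2d1 lower both in Chd7 mutant CGNs and in CGNs given ICRF-193. Mutant arrays were lower within each replicate number, though the groups overlapped, and the change of -0.44 had a limma adjusted p of 0.0934, or 0.0126 once the replicate number was a block. All 5 of its bright probe sets had negative changes in the mutant, -0.86 to -0.44, and with their mean the gene was called lower (-0.62, limma adjusted p = 0.0317). Cacna1e had 11.70, 11.69, 11.88 and 11.99 in mutant arrays and 11.86, 12.00, 12.08 and 12.22 in control arrays (change -0.23, limma adjusted p = 0.201). The TARP gene Cacng5 had 6.67, 6.96, 8.29 and 8.13 in mutant arrays, against 6.15, 6.45, 7.32 and 6.91 in control arrays, and was called once the replicate number was a block (change 0.80, limma adjusted p = 0.263, or 0.0238 with the block). It passed the filter only through its mutant arrays, with a mean of 6.24 over the other arrays. Its call with the block is therefore no support for a change. Scn8a was no longer called with the block (adjusted p = 0.0503). Changes of the other uncalled members lay between -0.34 (Cacng8) and 0.41 (Cacng4).

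Replicates 1 and 2 and replicates 3 and 4 stood apart in both the Chd7 and the ICRF-193 comparison, and a few members moved with that split. Cacna2d3 had 11.24 and 11.12 in mutant replicates 3 and 4, against 10.50 and 10.48 in the control replicates of the same numbers. In replicates 1 and 2 it had 10.70 and 10.54 in mutant arrays and 10.61 and 10.68 in control arrays. Over all 8 arrays the change was 0.33 (limma adjusted p = 0.219), and with replicates 3 and 4 alone 0.69 (limma adjusted p = 0.0111, a fit added after the data were seen). Cacng8 went the other way in replicates 1 and 2, with 6.91 and 6.52 in mutant and 7.63 and 7.49 in control arrays.

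Markers of other cells moved with the Chd7 groups. The summed signal of 7 oligodendrocyte lineage markers was 13818 to 17596 in mutant arrays and 4559 to 10938 in control arrays, with 1 of 6 tested called higher. That of 5 fibroblast and pericyte markers was 4168 to 6992 in mutant arrays and 2027 to 3414 in control arrays (2 called higher), and that of 7 skeletal muscle markers 1179 to 2242 in mutant arrays and 425 to 576 in control arrays (3 of 3 tested called higher). The 8 astrocyte and Bergmann glia markers had a median change of 0.79 (1 called higher) and summed to 8960 to 34676 in mutant arrays and 6887 to 17528 in control arrays. Of the 7 tested markers of proliferating progenitors 1 was called higher (median change 0.68), and the 8 measured summed to 10637 to 19219 in mutant arrays and 6627 to 10707 in control arrays. The median change of each of these lists was above 0, while that of 5 tested microglia markers was -0.92 with 0 called. The 11 granule neuron markers summed to 103278 to 112529 in mutant arrays, against 119721 to 122412 in control arrays (1 of 10 tested called lower). The 3 Y-linked genes measured summed to 48 to 399 in mutant arrays and 1221 to 1746 in control arrays, and all 3 were called lower (median change -3.22). The X inactivation gene Xist had a signal of 12022 to 14711 in mutant arrays and 5200 to 10862 in control arrays, and was not called. The groups thus differed in sex-linked transcripts as well as in genotype. The part of these differences in the channel results was not tested. The targeted gene itself had 8.99, 9.02, 9.89 and 9.98 in mutant arrays, against 11.33, 11.27, 11.66 and 11.72 in control arrays, at the dimmer of its probe sets. The brighter Chd7 probe set had 11.65 ± 0.25 in mutant and 11.89 ± 0.13 in control arrays (SD, n = 4).

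With ICRF-193 the alpha2delta genes Cacna2d3 and Cacna2d1 were lower by 2.02 and 1.81, a 4.07-fold and a 3.50-fold decrease, and the pores Cacna1e and Cacna1c were lower by 1.20 and 1.11. The L-type pore Cacna1d was the only member called higher, by 0.48. The question here is which transcripts need type II topoisomerase activity in CGNs. The 4 of 21 members called lower (19.0%) stand beside 3.46% of all genes tested, and the 1 called higher (4.76%) beside 3.14%. The groups were fully separate for the same 5 members, 4 lower (6.64% of all genes) and 1 higher (7.63%). No sodium channel gene was called.

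Cacna2d3 had 8.41, 8.21, 8.15 and 7.98 with ICRF-193, against 10.42, 10.42, 10.05 and 9.95 with DMSO (limma adjusted p = 7.38e-05). Cacna2d1 had 10.49, 10.70, 10.63 and 10.55 with ICRF-193, against 12.33, 12.44, 12.46 and 12.37 with DMSO (limma adjusted p = 7.05e-06). The gap between the groups of both genes was several times the spread within either group. Of the 5 bright probe sets of Cacna2d1, 3 were called lower when every probe set was fitted, and 1 averaged 7.55 with ICRF-193 and 7.57 with DMSO (change -0.02), so its probe sets did not move by the same amount. Cacna1e had 10.51, 10.55, 10.72 and 10.83 with ICRF-193, against 11.88, 11.87, 11.79 and 11.86 with DMSO (limma adjusted p = 9.23e-05). Cacna1c had 8.37, 8.56, 7.99 and 8.58 with ICRF-193, against 9.29, 9.34, 9.64 and 9.67 with DMSO (limma adjusted p = 0.00302). The dimmer Cacna1c probe set was lower by more, 6.84 with ICRF-193 and 9.07 with DMSO on average (change -2.24). All 4 genes were called whichever single array was left out.

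Cacna1d had 8.79, 8.97, 8.97 and 8.95 with ICRF-193, against 8.53, 8.33, 8.50 and 8.38 with DMSO (limma adjusted p = 0.00737). Every treated array was above every DMSO array, but the call was lost when arrays were centred on their medians instead of quantile normalized (change 0.44, limma adjusted p = 0.0870). Cacna1d and Cacna2d3 lie on the same chromosome 14, at 30039941 to 30491156 and 28904943 to 29722775 (GRCm38.p6), so the member with the steepest fall and the one member called higher are separated by less than the length of either gene.

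**Figure D3:**
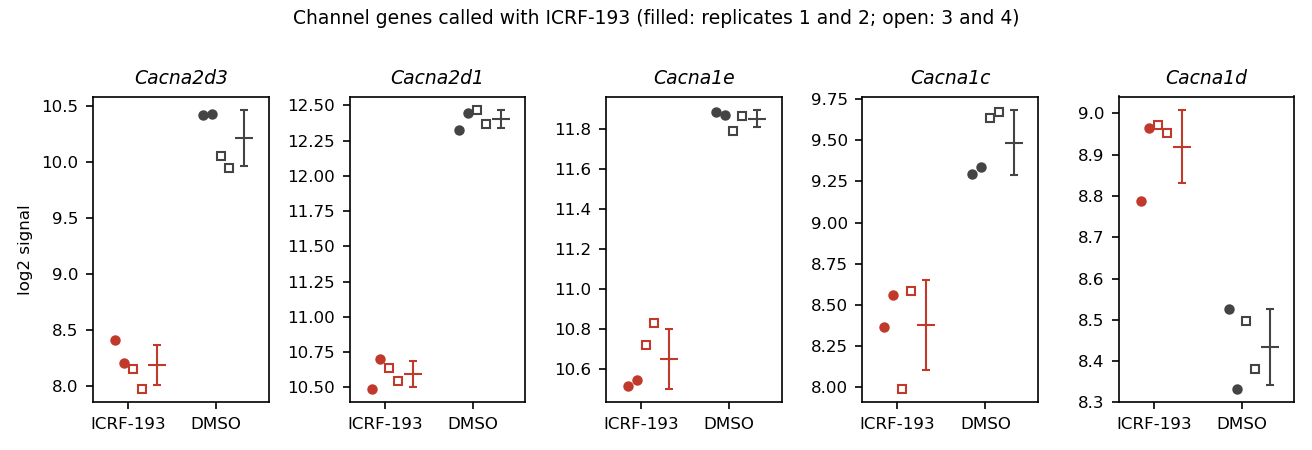
Log2 signal (y axis, a separate scale for each gene) of the 5 members called in the ICRF-193 comparison, with the 4 ICRF-193 arrays left of the 4 DMSO arrays; filled circles are replicates 1 and 2, open squares replicates 3 and 4, and the bar is the mean with its SD. The groups do not overlap in any panel, and Cacna1d is the panel in which ICRF-193 arrays are higher.

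No auxiliary subunit other than the alpha2delta pair was called with ICRF-193. The beta subunit gene Cacnb4, mutated in the lethargic mouse, had 9.09, 9.43, 9.18 and 9.04 with ICRF-193 and 9.82, 9.96, 9.73 and 9.25 with DMSO (change -0.50, limma adjusted p = 0.113, or 0.0362 once the replicate number was a block). Scn3b, a sodium channel beta subunit, had 11.11, 11.31, 11.22 and 11.00 with ICRF-193, against 11.59, 11.70, 11.50 and 11.28 with DMSO (change -0.36, limma adjusted p = 0.105, or 0.0341 with the block). The groups of both genes overlapped, and the calls depended on modelling the replicate numbers. The TARP gene Cacng4 had 9.43, 9.37, 8.83 and 8.97 with ICRF-193 and 8.97, 8.63, 8.44 and 8.28 with DMSO (change 0.57, limma adjusted p = 0.123, or 0.0165 with the block). Scn2a also changed its call with the block, with 10.02, 10.12, 9.80 and 9.61 with ICRF-193, against 9.84, 9.63, 9.04 and 9.04 with DMSO (change 0.50, limma adjusted p = 0.227, or 0.0470 with the block). In these 4 genes the ranges of the groups overlapped. With the block 6 members were called lower and 3 higher. Over all genes the block gave 485 lower and 460 higher, against 373 and 338 without it. Granule neuron markers summed to 107339 to 117250 with ICRF-193 and 119079 to 125043 with DMSO, with 1 of 10 tested called in each direction. The 3 GABAergic interneuron markers measured summed to 3406 to 4099 with ICRF-193 and 4718 to 5437 with DMSO, with 1 called lower. Chd7 was itself lower with ICRF-193, with 10.63 ± 0.23 against 11.98 ± 0.18 with DMSO at the brighter probe set (SD, n = 4, change -1.35, limma adjusted p = 0.00524) and a change of -1.28 at the dimmer (limma adjusted p = 0.0255). The part of these differences in the channel results was not tested.

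Channel genes are long, with a median annotated length of 129.6 kb over the tested members, against 25.0 kb over all tested genes, and 61.9% of them exceed 100 kb, against 14.6% of all. The members called with ICRF-193 measure 818 kb (Cacna2d3), 610 kb (Cacna1c), 494 kb (Cacna1e), 440 kb (Cacna2d1) and, the one called higher, 451 kb (Cacna1d). All 5 are among the 13 tested members over 100 kb, and none of the 8 shorter members was called. Over all genes tested only 3.46% were called lower and 3.14% higher, so the lack of calls among 8 members says little about them. Among all genes over 100 kb, 15.6% were called lower with ICRF-193 and 3.18% higher, so the 4 of 13 long members called lower stand beside a background that is itself high. Length did not order the changes completely: Cacna1a (302 kb) had a change of -0.05. Spearman's rho between length and change was -0.37 over the 21 members and -0.07 over 10751 genes with a length, as a description, since genes on the same arrays are not independent replicates.

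**Figure D4:**
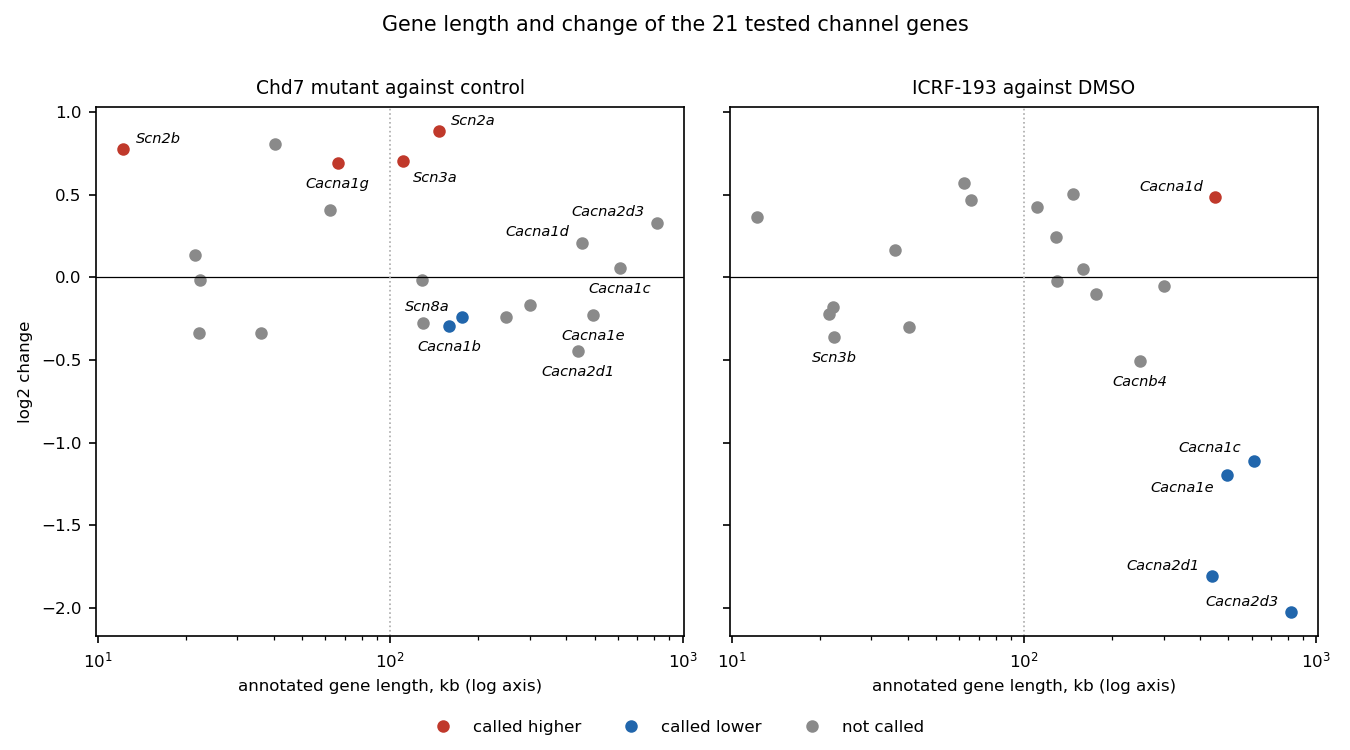
Log2 change (y axis) against annotated gene length in kb (x axis, log scale) for the 21 tested members in Chd7 mutant against control CGNs and in ICRF-193 against DMSO, coloured by call, with the dotted line at 100 kb. The 4 members called lower with ICRF-193 are at 440 to 818 kb beside Cacna1d, which is called higher at 451 kb; in the Chd7 panel called members run from Scn2b at 12.2 kb to Scn8a at 176 kb.

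In the Chd7 mutant the members called measure 12.2 kb (Scn2b), 66.0 kb (Cacna1g) and, for the other 4, between 110 and 176 kb. Of the 13 members over 100 kb, 2 were called lower and 2 higher in the mutant, beside 9.6% and 6.8% of all genes of that length. The 5 members over 400 kb had changes of -0.44 to 0.33 there, and none was called in the main fit, which had no block. With the replicate block Cacna2d1 was called lower, with a block of replicates 1 and 2 against 3 and 4 Cacna2d1 (limma adjusted p = 0.00638) and Cacna1e (limma adjusted p = 0.0313) were, and both were also called after median centring (limma adjusted p = 0.0182 and 0.0421). Whether the effects differ was tested directly on the 16 arrays of both comparisons, as the ICRF-193 effect minus the mutant effect. It was below 0 for Cacna2d3 (-2.35 ± 0.22 SE, limma adjusted p = 1.46e-05), Cacna2d1 (-1.36 ± 0.16, limma adjusted p = 0.000164), Cacna1c (-1.17 ± 0.17, limma adjusted p = 0.000941) and Cacna1e (-0.97 ± 0.13, limma adjusted p = 0.000526). Over all genes tested 3.87% had a called negative difference and 2.62% a called positive one. The difference for Cacna2d1 was not called when all its bright probe sets were averaged (-0.62, limma adjusted p = 0.0658). The 4 genes called higher in the mutant had differences of -0.41 to -0.22, and none passed (limma adjusted p = 0.177 to 0.830), so a larger effect of the mutation than of the drug on them was not shown.

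With Smo2 the channel genes were lower almost throughout. Of 21 tested members 17 were called lower (81.0%), beside 39% of all genes tested, and Cacng5 alone was called higher (4.76%, beside 29.7%). Cacng5 passed the filter only through its Smo2 arrays, with a mean of 6.47 over all arrays and 6.32 over the others, and it was not called without the filter (limma adjusted p = 0.0593), so its call is no support for a change. The median change was -1.32 over the members and -0.09 over all genes, and it was -1.32 both over members longer than 100 kb and over the shorter ones, while over all genes longer than 100 kb it was -0.37. Of the 13 long members 12 were called lower and 0 higher, beside 55.1% and 20.5% of all genes of that length. Every Smo2 array lay below every array without Smo2 for 18 members (41.6% of all genes) and above for 1 (31.9%). All 6 calcium channel pores, all 3 sodium channel pores, all 3 alpha2delta genes and both sodium channel beta genes tested were among the 17. Of the 17, Scn3a and Cacng8 were not called without the filter (limma adjusted p = 0.0734 and 0.0687). In the study such cultures contrast proliferating granule cells with postmitotic CGNs.

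The R-type pore Cacna1e had 9.69, 9.80 and 9.64 with Smo2, against 11.68, 11.85 and 11.94 without it (change -2.11 ± 0.08, a 4.32-fold decrease, limma adjusted p = 7.32e-06). The release pores were lower as well. Cacna1a had 7.34, 7.67 and 7.53 with Smo2 and 8.99, 8.95 and 9.08 without it (change -1.49). Cacna1b had 9.28, 9.21 and 9.42 with Smo2, against 10.63, 10.63 and 10.61 without it (change -1.32). For both, 3 of 3 bright probe sets were called lower when every probe set was fitted. The L-type pore Cacna1d had 7.26, 6.92 and 7.58 with Smo2 and 8.61, 8.44 and 8.87 without it (change -1.39), and Cacna1c had 8.52, 8.43 and 8.55 with Smo2, against 9.46, 9.16 and 9.42 without it (change -0.85). The T-type pore Cacna1g had 7.06, 6.88 and 6.99 with Smo2, against 8.07, 7.93 and 8.08 without it (change -1.05). None of these 6 genes overlapped between the groups, and limma adjusted p lay between 7.32e-06 and 0.000866.

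Sodium channel pores were lower by 1.08 to 1.20. Scn8a had 9.92, 10.15 and 10.02 with Smo2, against 11.13, 11.28 and 11.29 without it, and Scn2a had 7.98, 8.10 and 7.99 with Smo2, against 9.30, 9.09 and 9.21 without it. Scn3a had 5.57, 6.88 and 6.51 with Smo2, against 7.31, 7.46 and 7.44 without it. Its Smo2 arrays spread over more than 1 log2 unit, and its call (limma adjusted p = 0.0228) was lost when any 1 array without Smo2 was left out (adjusted p = 0.0503 to 0.0622). The beta subunit Scn3b had 9.74, 9.55 and 9.78 with Smo2 and 11.44, 11.31 and 11.40 without it (change -1.69 ± 0.08, a 3.24-fold decrease, limma adjusted p = 1.15e-05). Scn2b had 7.73, 7.80 and 7.58 with Smo2, against 9.05, 8.80 and 9.04 without it (change -1.26), so all 5 tested sodium channel genes were lower on every Smo2 array.

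Among auxiliary calcium channel subunits, Cacna2d3 had 9.14, 9.04 and 9.22 with Smo2, against 10.54, 10.59 and 10.79 without it (change -1.51). Cacna2d2, the alpha2delta of the ducky mouse, had 7.45, 7.60 and 8.08 with Smo2, against 9.20, 8.82 and 9.32 without it (change -1.40), and Cacna2d1 had 11.58, 11.68 and 11.64 with Smo2, against 12.65, 12.62 and 12.71 without it (change -1.03). Cacnb4 had 7.90, 8.35 and 7.93 with Smo2, against 9.58, 9.78 and 9.63 without it (change -1.61 ± 0.14, a 3.04-fold decrease, limma adjusted p = 0.000107). The alpha2delta genes and Cacnb4 were thus separated between the groups on every array. The other beta subunit tested, Cacnb1, had 4.89, 6.61 and 6.80 with Smo2, against 7.39, 7.89 and 7.18 without it. It did not overlap either, but its spread was wide and it was not called (change -1.38 ± 0.52, limma adjusted p = 0.0532).

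The gamma and TARP genes were the class that did not move together with Smo2. Cacng2 (stargazin), the TARP that brings AMPA receptors to the granule cell surface, had 10.40, 10.71 and 10.39 with Smo2, against 10.47, 10.57 and 10.53 without it, a change of -0.02 with a 95% interval of -0.26 to 0.22. Its other bright probe sets had changes of -0.53 and 0.38, so the gene's probe sets did not move one way. Cacng7 had 8.43, 8.75 and 8.51 with Smo2 and 9.08, 8.68 and 8.62 without it (change -0.23, 95% interval -0.59 to 0.13). Cacng4 was lower, with 7.48, 7.21 and 7.80 with Smo2, against 8.69, 9.44 and 8.91 without it (change -1.52, limma adjusted p = 0.00142). Cacng8 had 4.00, 6.44 and 5.36 with Smo2, against 7.33, 7.08 and 7.45 without it. Of its Smo2 arrays 1 was at the floor, and the call (change -2.02 ± 0.58, limma adjusted p = 0.0204) was lost when Smo2 replicate 3 or replicate 1 or 3 without Smo2 was left out (adjusted p = 0.0509 to 0.0576). Cacng5 had 6.79, 7.66 and 7.75 with Smo2, against 6.61, 6.35 and 6.41 without it (change 0.94 ± 0.26, limma adjusted p = 0.0174). All its Smo2 arrays were higher, and its call was lost when Smo2 replicate 2 or 3 or replicate 2 without Smo2 was left out (adjusted p = 0.0525 to 0.0551). Cacng5 and Cacng4 are neighbours on chromosome 11, and Cacng7 and Cacng8 on chromosome 7. Cacng5 passed the filter only through its Smo2 arrays. Neither Cacng5 nor Cacng8 was called without the filter (limma adjusted p = 0.0593 and 0.0687), so no difference between neighbours is read from these values.

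**Figure D5:**
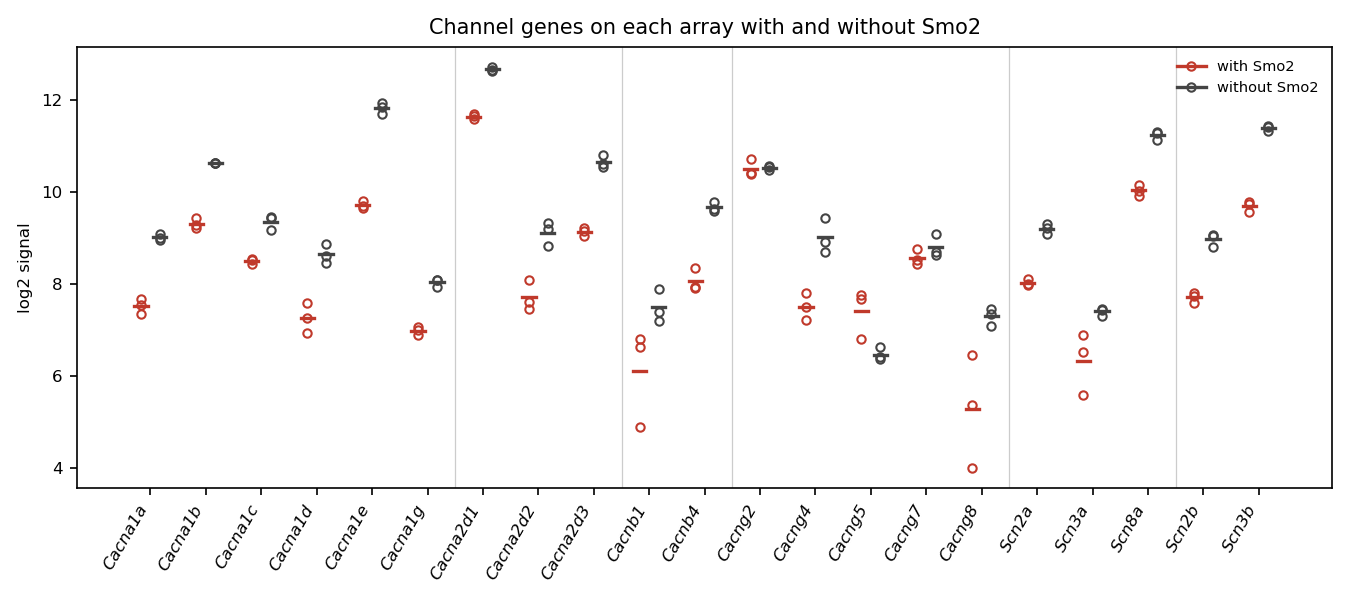
Log2 signal (y axis) of the 21 tested members (x axis, grouped as in the plot of changes) on the 3 arrays with Smo2, left in each pair, and the 3 without it; circles are arrays and lines are means, and levels do not compare between genes. The Smo2 circles lie below all others for 18 members and above them for Cacng5, and they overlap for Cacng2 and Cacng7.

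Markers of the granule lineage and of other cells moved with Smo2. All 7 tested markers of proliferating progenitors were higher, and the 8 measured summed to 59667 to 61874 with Smo2, against 11265 to 12147 without it. All 10 tested granule neuron markers were lower, with a median change of -0.80, and the 11 measured summed to 82560 to 89196 with Smo2, against 130069 to 132653 without it. The 3 markers of GABAergic interneurons measured were all lower, with a median change of -1.40 and sums of 1261 to 1453 with Smo2, against 3602 to 3671 without it. All 5 tested microglia markers were lower (median -1.05, sums of the 7 measured 554 to 807 with Smo2 and 1219 to 1725 without it), and of 8 astrocyte and Bergmann glia markers 6 were lower and 2 higher. The 1 tested Purkinje cell marker was lower (-0.74). Other lists did not fall. Of 6 tested oligodendrocyte lineage markers 3 were higher and 2 lower (median 0.56). Of 3 tested skeletal muscle markers 1 was higher (median 0.79), and of 5 fibroblast and pericyte markers 1 was higher (median 0.21). The 1 tested endothelial marker was not called. The median change of the channel members was -1.32, against -0.80 for the granule neuron markers and 2.88 for the markers of proliferating progenitors. The part of cell state or cell makeup in the channel changes was not tested.

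Proteins that bind or regulate these channels were followed in a list of 58 genes, of which 51 were on the array and 38 were tested. In the Chd7 mutant 4 were lower and 1 higher, beside 3.82% and 5.09% of all genes. Fgf13, a fibroblast growth factor homologue that binds sodium channel tails, had 12.39 ± 0.11 in mutant and 13.23 ± 0.09 in control arrays (SD, n = 4, change -0.84, limma adjusted p = 0.000867). Nrcam, Ank2 and Rims1 were lower by 0.70, 0.49 and 0.43, and Nfasc, an adhesion molecule gene of axon initial segments, was higher by 0.47. With ICRF-193 9 were lower, beside 3.46% of all genes, and 1 was higher, the endolysosomal channel gene Tpcn1, beside 3.14%. Fgf14, the homologue altered in a hereditary ataxia, had 6.20 ± 0.66 with ICRF-193 and 8.44 ± 0.68 with DMSO (SD, n = 4, change -2.24, limma adjusted p = 0.0124), and the active zone gene Erc2 was lower by 1.28, Nrcam by 1.21, Ank2 by 1.05 and Fgf13 by 0.96. These 5 genes span 276 to 856 kb. With Smo2 27 of the 38 were lower, beside 39% of all genes, and 1 was higher, again Tpcn1, beside 29.7%. The steepest falls were those of Rims1 (-1.77), the calcium pump gene Atp2b3 (-1.70) and the calcium release channel gene Ryr3 (-1.63). The median change of the list was -0.16 in the Chd7 mutant, 0.00 with ICRF-193 and -0.81 with Smo2.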

How the data were processed

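The authors deposited linear signal intensities, 45101 probe sets on each of 22 Affymetrix mouse genome arrays, made from biotin-labelled cRNA. Each array has a mean of 500 after trimming 2% of probe sets at each end, so arrays were scaled as a whole; for the software, the summarisation and any further normalization, a description was not given in the sources used here. Intensities give no counts or depth, and the number of arrays limits the precision. Of the probe sets 34958 carry 1 gene symbol. Signals were floored at 16, taken to log2 and quantile normalized, because array medians ranged from 6.33 to 6.81. Among the 231 possible pairs of arrays, 0 were identical.

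Every comparison was fitted on its own arrays with limma 3.58.1 in R 4.3.3, without a block. A 4-group fit gave the difference between the ICRF-193 and Chd7 effects. Fits of every probe set and without the filter were alternatives, as were other normalizations, filters, floors, variance models, the methods' t-test, blocks and leaving out each array. The pipeline was tested on simulated data. Every member is named, and members called in a comparison, with Cacna2d1 and Cacna1e, which the study lists, have their array values given. The members, the gene lists and the tests were chosen with earlier results of these data known. Bright probe sets are those that pass the filter. Gene lengths and promoters are from RefSeq (GRCm38.p6).

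Replicate numbers come from the labels. After group means were subtracted, same-numbered arrays correlated at 0.39 to 0.42 (Chd7) and 0.28 to 0.41 (ICRF-193). Differently numbered arrays within replicates 1 and 2, or within 3 and 4, reached 0.38 to 0.44 (Chd7) and 0.30 to 0.35 (ICRF-193). Between those sets arrays correlated at -0.45 to -0.39 (Chd7) and -0.43 to -0.21 (ICRF-193). The correlations thus follow the sets and do not show pairing by number, so fits with the replicate block are alternatives only. In the Smo2 comparison same-numbered arrays correlated at -0.01 to 0.04. Channel genes without a single-symbol probe set were not analysed here. Figures were drawn with matplotlib 3.10.9.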

Additional observations from a re-analysis of the deposited data

Results flagged for a closer look

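In 3 of 84 member groups of 4 arrays, 1 array lay far from the others; chance flags about 1 in 20 such groups. Scn3a had 8.59 in Chd7 mutant replicate 4, against 8.09 to 8.16 on the other mutant arrays. Cacna1d had 8.79 in ICRF-193 replicate 1, against 8.95 to 8.97 on the other ICRF-193 arrays, and that array was the closest to the DMSO group. Cacna1a had 8.93 in DMSO replicate 4, against 8.37 to 8.46 on the other DMSO arrays, in a comparison in which it was not called. Scn3a and Cacna1d were called whichever single array was left out.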

How the results depend on the processing

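Direction held for every called member under every alternative run, and no call reversed. The 4 members lower with ICRF-193 were called under every planned setting; in fits added after the data were seen, replicates 3 and 4 alone left 3 and means of replicates 1 and 2 and of 3 and 4 used as samples left 2. The 17 lower with Smo2 became 14 with a filter of at least 8, which kept 16 members, and 15 to 18 with 1 array left out. They became 16 without the filter, Cacna1h among them. In the methods' t-test, with every probe set fitted and at an adjusted p under 0.01 they became 15. Scn3a and Cacng8 lost their calls in all of these fits. The counts below are members called, out of 21 tested, or out of 16 with a filter of at least 8 and 35 without the filter. In the Chd7 comparison (4 higher, 2 lower), 2 were higher with a filter of at least 8, 1 higher and 0 lower at an adjusted p under 0.01, and 4 lower after median centring. The filter of at least 8 removed Scn3a and Cacna1g, whose means over all arrays were 7.59 and 7.78. Leaving out 1 array gave 4 higher each time and 0 to 1 lower. With ICRF-193 (1 higher), 0 were higher after median centring, 2 without the filter, and 2 with the mean of bright probe sets. The call added without the filter was Cacna1h, which the filter leaves out. Leaving out 1 array gave 4 to 6 lower and 1 higher. With Smo2 (1 higher), 0 were higher without the filter, with a filter of at least 8, in the methods' t-test, with every probe set fitted and at an adjusted p under 0.01, and 0 to 1 with 1 array left out. The 4 called differences between effects numbered 4 to 5, but with the mean of bright probe sets Cacna2d1 lost its call (adjusted p = 0.0658) and Cacna1b gained a positive one (adjusted p = 0.0487). Unless named, the cause was not tested.

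With the replicate block, 5 members were higher and 2 lower in the Chd7 comparison, 3 higher and 6 lower with ICRF-193, and 1 higher and 17 lower with Smo2. Over all genes that block gave 856 higher and 555 lower (Chd7), 460 and 485 (ICRF-193), and 3080 and 4064 (Smo2). The correlations between arrays did not show pairing by replicate number in any of these comparisons. A block of replicates 1 and 2 against 3 and 4 gave 6 higher and 6 lower (Chd7), and 3 higher and 6 lower (ICRF-193). Calls over all genes rose as well with that block. They were 1354 higher and 1010 lower, against 548 and 412 in the main fit (Chd7). With ICRF-193 they were 649 higher and 614 lower, against 338 and 373. The higher members of both block fits in the Chd7 comparison include Cacng5, which passed the filter only through its mutant arrays. Fits added after the data were seen have fewer samples: replicates 3 and 4 alone gave 0 lower in the Chd7 comparison, each set alone gave 0 higher with ICRF-193, and set means as samples gave 0 in either direction (Chd7, where 0 of all genes passed and 653 higher and 468 lower had an unadjusted p under 0.05) and 0 higher (ICRF-193). Median centring moved the median of all genes with Smo2 to 0.05, against -0.09, and 17 members stayed lower; calls over all genes were then 391 higher and 551 lower, against 548 and 412, in the Chd7 comparison, and 4052 and 3218, against 3196 and 4197, with Smo2. Members near the floor have little room to fall, so their changes are limited by background.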
